A study of Homo sapiens with 21 samples.

Results

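The proteasome's constitutive subunit genes were taken as every gene of both count tables whose symbol is PSMA, PSMB, PSMC or PSMD followed by a number, leaving out the immunoproteasome genes PSMB8, PSMB9 and PSMB10 and any pseudogene. That gave 36 of the 28008 genes counted. They fall by role into 7 alpha ring genes, 7 beta ring genes, 2 tissue-restricted core genes, 6 base ATPase genes, 3 other base genes, 8 lid genes and 3 genes of base assembly chaperones. Of the 36, 34 had enough counts to be tested in every comparison, and PSMA8 and PSMB11 did not. Messenger RNA was measured by sequencing in 21 libraries of 2 human leukaemia cell lines, as part of a study of what makes cancer cells susceptible to stapled oncolytic peptides. Batch 1, as the labels call a sequencing batch, held 4 groups of 3 libraries each. They were OCI-AML3 cells with genotype Res treated with StAMP from resistant biological replicate 1 (resistant 1 below), K562 parental cells, OCI-AML3 cells with genotype WT given DMSO (vehicle), and OCI-AML3 parental cells; both parental groups have genotype WT and N/A as treatment. Batch 2 held 3 groups of 3 libraries each, which were resistant biological replicate 2 (resistant 2), resistant 1 again, and vehicle. OCI-AML3 is an acute myeloid leukaemia line and K562 is a line from a chronic myeloid leukaemia that the labels call erythroleukemia. The labels give no dose, time or selection scheme for StAMP, 2 resistant biological replicates are named, and no label says whether the 3 libraries of a group came from different cultures. Each p-value below therefore reflects only the spread between these libraries, which may be technical.

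The proteasome is the protease that degrades ubiquitin-tagged proteins in the cytosol and nucleus. Its core particle is a stack of alpha and beta rings, in which the alpha rings gate the entrance and PSMB5, PSMB6 and PSMB7 carry the chymotrypsin-like, caspase-like and trypsin-like active sites. Its regulatory particle has a base, where the PSMC ATPases unfold the substrate, and a lid, where PSMD14 cuts off the ubiquitin chain. PSMD5, PSMD9 and PSMD10 help to build the base and are not part of the finished particle. In blood-derived cells the 3 active subunits can be replaced by the immunoproteasome subunits PSMB8, PSMB9 and PSMB10.

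Libraries held 14066821 to 21091646 counts in batch 1 and 30719771 to 51262668 in batch 2. Levels are given as counts-per-million (CPM) of the TMM-scaled library size, scaled within a batch, so levels are compared only within a batch. Marker genes set the resistant libraries apart from the line they are labelled as. The summed level of 8 erythroid genes in batch 1 was 3027 to 3143 CPM in resistant 1 and 3282 to 3408 CPM in K562. Vehicle libraries of batch 1 summed to 20.2 to 20.8 CPM and parental libraries to 12.4 to 13.8 CPM. In batch 2 the sum was 877 to 1332 CPM in resistant 2 and 1293 to 1389 CPM in resistant 1, against 12.3 to 15.2 CPM in vehicle. None of the 8 was at 0 in the resistant and K562 groups. GATA1, RHAG, HBG1, HBG2 or HEMGN had 0 counts in at least 1 vehicle or parental group. For 9 monocyte and granulocyte genes, the batch 1 sum was 86.8 to 89.2 CPM in resistant 1 and 41.6 to 46.0 CPM in K562. Vehicle of batch 1 summed to 2208 to 2260 CPM and parental cells to 2455 to 2561 CPM. In batch 2 the sum was 133 to 145 CPM in resistant 2 and 176 to 206 CPM in resistant 1, against 1920 to 1976 CPM in vehicle. MPO was at 0 in K562 and IRF8 in both resistant groups of batch 2, and none was at 0 in vehicle or parental groups. Of the other lists, 4 stromal and epithelial genes in batch 1 summed to 248 to 274 CPM in resistant 1 and 311 to 322 CPM in K562. Vehicle of batch 1 had 0.727 to 1.37 CPM and parental cells 3.81 to 4.97 CPM. In batch 2 these genes summed to 165 to 187 CPM in resistant 2 and 212 to 244 CPM in resistant 1, against 0.0621 to 0.239 CPM in vehicle. EPCAM was at 0 in every vehicle and parental group. The 4 T and B cell genes in batch 1 summed to 10.2 to 12.9 CPM in resistant 1 and 10.2 to 11.9 CPM in K562. Vehicle and parental libraries of batch 1 had 0 to 0.48 CPM. In batch 2 these genes summed to 4.26 to 7.01 CPM in resistant 2 and 8.48 to 17.8 CPM in resistant 1, against 0.0431 to 0.186 CPM in vehicle. MS4A1 was at 0 in every group but vehicle of batch 1, and CD3E and CD3D were at 0 in the vehicle and OCI-AML3 parental groups. Of 3 proliferation genes, the sum was 1889.9 to 1998 CPM in resistant 1, against 1932 to 2001 CPM in vehicle of batch 1, and 1649 to 1684 CPM in K562, against 2238 to 2484 CPM in parental OCI-AML3. In batch 2 it was 1087 to 1738 CPM in resistant 2 and 1898 to 2140.1 CPM in resistant 1, against 1238 to 1662 CPM in vehicle. Proliferation genes were thus apart in resistant 1 of batch 2 and in K562, and overlapped in the other 2 comparisons. Resistance and whatever else separates the resistant libraries from OCI-AML3 cells therefore cannot be told apart here, and the part of these markers in the results on proteasome genes was not tested. Replicates of batch 2 lay further apart than those of batch 1, with a chi-square per gene between replicates of 20.8 to 84.5 in batch 2 and 1.81 to 7.18 in batch 1. This measure on raw counts also grows with depth, which was greater in batch 2, so its gap is not spread alone. Some libraries were high in most of the 34 genes tested: in batch 2, 28 were highest in replicate 2 of resistant 2 and 24 in replicate 2 of resistant 1, and in batch 1, 25 were highest in replicate 3 of parental OCI-AML3.

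The 36 genes together took up 0.68 to 0.71% of all counts in resistant 1 of batch 1 and 0.74% in K562, against 0.48 to 0.49% in vehicle and 0.53 to 0.57% in parental cells. Their summed level was 6507 to 6683 CPM in resistant 1 and 7372 to 7469 CPM in K562, against 4937 to 5065 CPM in vehicle and 5423 to 5702 CPM in parental libraries. No library of resistant 1 or K562 overlapped one of vehicle or parental cells. In batch 2 the sums overlapped, with 4399 to 5441 CPM in resistant 2 and 5133 to 5882 CPM in resistant 1, against 4591 to 5011 CPM in vehicle; only resistant 1 stayed above every vehicle library. As these are bulk samples, fewer cells that express a gene and less RNA per cell cannot be told apart.

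The base assembly chaperones were the role group whose sum differed most as a ratio. PSMD5, PSMD9 and PSMD10 summed to 310.4 to 315 CPM in resistant 1 of batch 1 and 345 to 354 CPM in K562, against 126 to 132 CPM in vehicle and 133 to 137 CPM in parental cells. In batch 2 they summed to 297 to 337 CPM in resistant 2 and 312 to 333 CPM in resistant 1, against 143 to 149 CPM in vehicle. The groups were far apart in both batches, and PSMD5 made up most of the gap. The lid genes summed to 1514 to 1566 CPM in resistant 1 against 1117 to 1137 CPM in vehicle of batch 1, but to 1068 to 1280.2 CPM in resistant 2 and 1091 to 1304 CPM in resistant 1 against 1029 to 1180.1 CPM in vehicle of batch 2, where the groups overlapped. The base ATPase genes overlapped between groups in batch 2 as well. The alpha ring genes summed to 1032 to 1367 CPM in resistant 2 and 1420.0 to 1584 CPM in resistant 1, against 1213 to 1292 CPM in vehicle of batch 2, and the beta ring genes to 715 to 878 CPM in resistant 2 and 925 to 1043 CPM in resistant 1, against 792 to 831 CPM in vehicle. In both rings resistant 1 lay above vehicle without overlap, and resistant 2 overlapped vehicle.

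**Figure D1:**
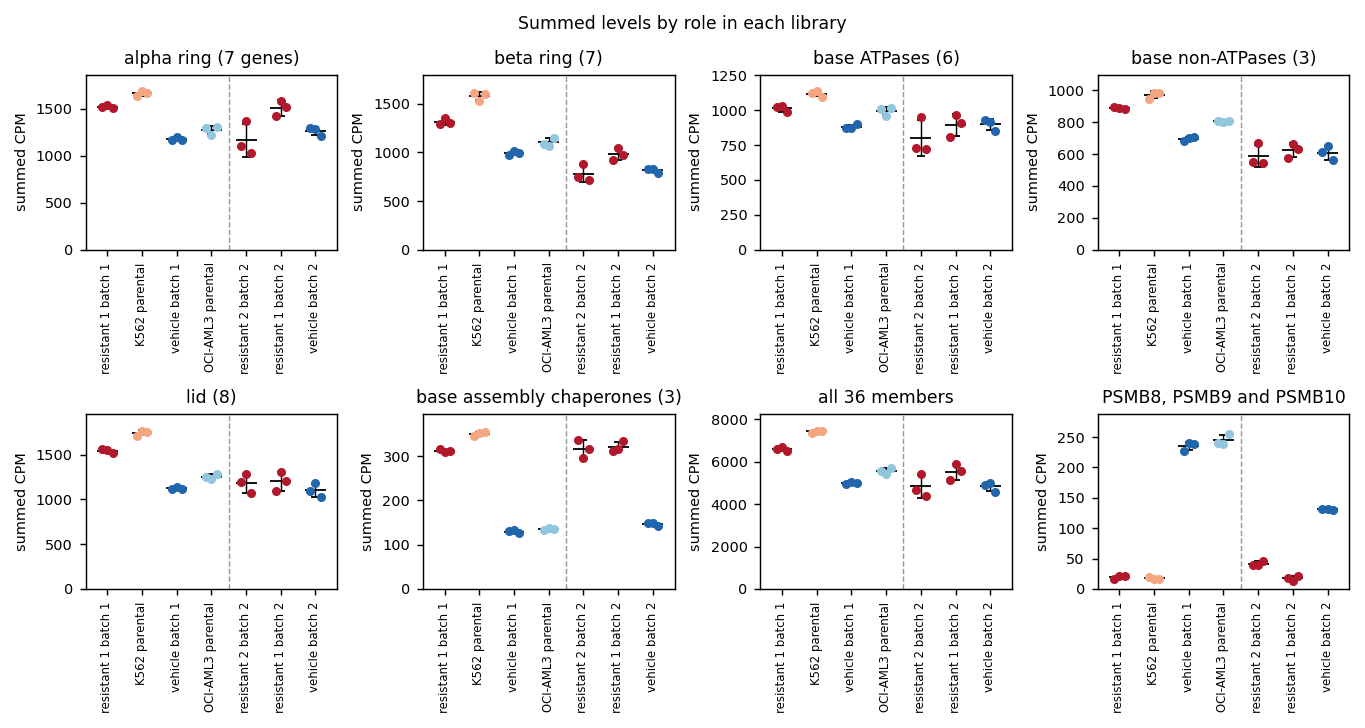
Summed CPM (vertical axis, linear from 0) of the genes of each role, of all 36 genes and of the 3 immunoproteasome genes in the 21 libraries; points are libraries, bars the group mean ± SD (n = 3), and a dashed line parts the batches, within which alone levels compare. The chaperone sum lay at 297 CPM or more in every resistant and K562 library and at 149 CPM or less in every vehicle and parental library.

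In batch 1, most constitutive subunit genes were higher in resistant 1 than in vehicle. By edgeR's quasi-likelihood test with Benjamini-Hochberg adjustment over 14505 genes, 27 of the 34 genes tested rose and 5 fell at an adjusted p under 0.05, while 44% of all genes tested were called higher and 42.1% lower. Among the 4928 genes within the level range of the subunit genes, a background chosen after seeing the data, 42.6% were higher and 45.1% lower. The median log2 fold change was 0.46 over the 34 genes and 0.02 over all genes tested, and the middle 50% of changes spanned 0.48 for the subunit genes and 1.69 for all genes. The subunit genes thus moved mostly in 1 direction. Only PSMD5, PSMD14, PSMA5, PSMD11 and PSMB2 changed by at least 1 on the log2 scale, as did 44.5% of all genes tested.

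PSMD5, which binds the base while it is being built, had the greatest rise. It stood at 211, 204 and 206 CPM in the resistant 1 libraries, against 39.7, 38.0 and 37.9 CPM in the vehicle libraries. Every resistant library lay far above every vehicle library, and the log2 fold change was 2.50 ± 0.058 (SE, n = 3 per group, edgeR adjusted p = 4.48e-24). PSMD14, the lid's deubiquitinase, stood at 276, 272 and 270.0 CPM in resistant 1, against 119, 125 and 118 CPM in vehicle (log2 fold change 1.25 ± 0.048). PSMD11, a lid subunit that touches the core particle, stood at 229.5, 219 and 214 CPM in resistant 1, against 112, 112 and 109.7 CPM in vehicle (1.06 ± 0.048). For PSMD14 and PSMD11 too the groups were wide apart. In the core particle, the alpha subunit gene PSMA5 was at 252, 265 and 257 CPM in resistant 1, against 127, 129.6 and 126 CPM in vehicle (1.09 ± 0.047). The beta subunit gene PSMB2, which has no active site, was at 289, 298 and 291 CPM in resistant 1, against 143, 149 and 151 CPM in vehicle (1.06 ± 0.045). Each of these 5 genes kept its call under all 15 alternatives run for this comparison.

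The genes of the 3 active sites moved unequally. PSMB7, for the trypsin-like site, stood at 187, 201 and 197 CPM in resistant 1, against 102, 110.3 and 102 CPM in vehicle, and its log2 fold change was 0.97 ± 0.051. PSMB5, for the chymotrypsin-like site, the main target of bortezomib, stood at 139.6, 148 and 148 CPM in resistant 1, against 111, 117 and 114 CPM in vehicle (0.42 ± 0.050). Both rose without overlap between the groups. PSMB6, for the caspase-like site, stood at 61.4, 67.2 and 60.0 CPM in resistant 1, against 62.3, 63.8 and 71.6 CPM in vehicle (0.010 ± 0.069, edgeR adjusted p = 0.891). Its groups overlapped, and it was not called; the other gene not called was PSMA7, an alpha ring gene, at -0.0099. In the alpha ring the remaining 6 genes rose, among them PSMA3, whose product helps to form the gate, by 0.49 on the log2 scale.

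In the regulatory particle, 16 of the 20 genes tested, chaperones included, rose and 4 fell. PSMD2, the scaffold of the base that binds ubiquitin-like domains, stood at 445, 449 and 439.7 CPM in resistant 1, against 272, 275 and 269 CPM in vehicle (0.78 ± 0.042). The ATPase gene PSMC3 rose by 0.20, the chaperone genes PSMD9 and PSMD10 by 0.21 and 0.33 on the log2 scale. Without vehicle replicate 1 the call of PSMD9 was lost (edgeR adjusted p = 0.095). The 5 genes that fell came from 4 roles. The beta ring gene PSMB4 stood at 184, 191 and 182 CPM in resistant 1, against 252, 271 and 263 CPM in vehicle (-0.42 ± 0.049). The ATPase gene PSMC5 stood at 162, 168 and 159 CPM in resistant 1, against 220.1, 227 and 223 CPM in vehicle (-0.38 ± 0.050). Both genes were lower in every resistant library than in any vehicle library. PSMD12, a lid gene, changed by -0.25 ± 0.047, PSMD4, which encodes a ubiquitin receptor, by -0.22 ± 0.049 and PSMC1, another ATPase gene, by -0.15 ± 0.054. The call of PSMC1 was lost with scaling to total counts only and without resistant 1 replicate 3.

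**Figure D2:**
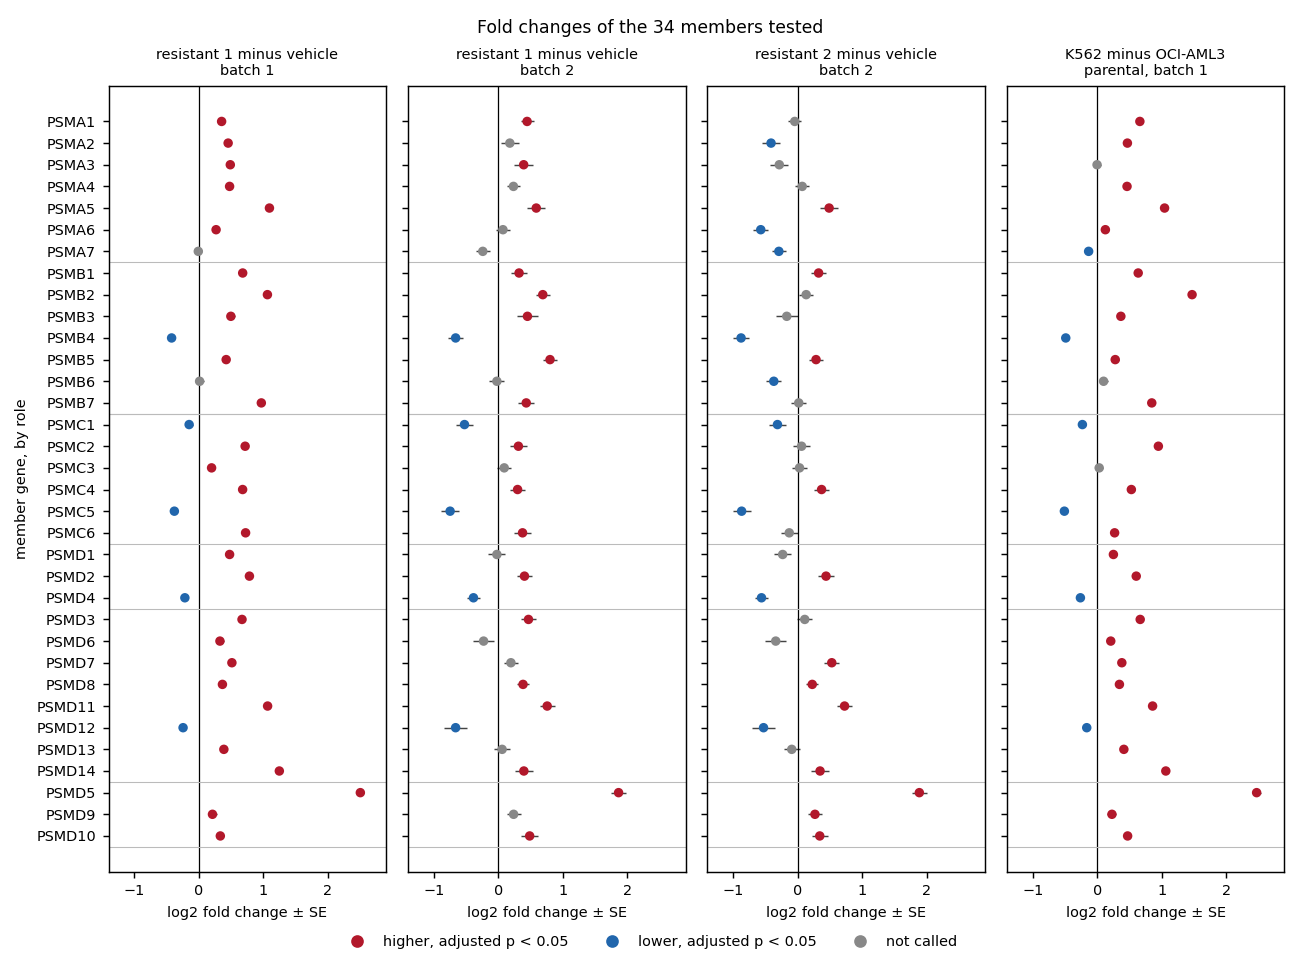
Log2 fold changes with their SE (horizontal axis) of the 34 genes tested, ordered by role from alpha ring to chaperones, for resistant 1 and resistant 2 minus vehicle and for K562 minus OCI-AML3 parental; red points were higher and blue points lower at an edgeR adjusted p under 0.05, and grey points were not called. PSMD5 stands furthest to the right in each panel, and PSMB4 and PSMC5 are among the furthest to the left.

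To show what lies upstream of genes that moved in opposite directions, 250 bases before the annotated start are printed for the 2 that rose most in batch 1 and for 2 that fell. They are from RefSeq on GRCh38.p14, 5′ to 3′ on the gene's strand, where 31 of the 36 genes were matched, with 37 windows. The motifs searched on both strands were TGACNNNGC, the core of the antioxidant response element, which the proteasome regulators NFE2L1 and NFE2L2 bind, then the CCAAT box, then the ETS factor motif CCGGAAG, and last the core that nuclear respiratory factor 1 binds, GCATGCGC. Capitals mark the matches.
PSMD5, chr9:120842923-120843172, minus strand: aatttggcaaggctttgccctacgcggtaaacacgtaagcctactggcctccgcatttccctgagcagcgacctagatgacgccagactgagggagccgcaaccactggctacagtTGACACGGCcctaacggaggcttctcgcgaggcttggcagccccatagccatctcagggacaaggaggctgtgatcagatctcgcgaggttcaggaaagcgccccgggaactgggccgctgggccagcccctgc
PSMD14, chr2:161308175-161308424, plus strand: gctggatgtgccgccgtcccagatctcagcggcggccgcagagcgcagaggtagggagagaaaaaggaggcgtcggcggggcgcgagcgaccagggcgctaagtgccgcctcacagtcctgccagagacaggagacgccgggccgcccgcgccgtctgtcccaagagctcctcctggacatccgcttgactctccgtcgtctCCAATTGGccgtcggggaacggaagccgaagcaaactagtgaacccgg
PSMD12, chr17:67366578-67366827, minus strand: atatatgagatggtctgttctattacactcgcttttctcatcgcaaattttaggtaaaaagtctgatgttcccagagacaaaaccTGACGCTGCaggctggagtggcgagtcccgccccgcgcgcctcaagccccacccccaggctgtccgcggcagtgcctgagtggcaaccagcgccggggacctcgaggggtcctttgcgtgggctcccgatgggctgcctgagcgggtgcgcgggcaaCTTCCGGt
PSMB4, chr1:151399323-151399572, plus strand: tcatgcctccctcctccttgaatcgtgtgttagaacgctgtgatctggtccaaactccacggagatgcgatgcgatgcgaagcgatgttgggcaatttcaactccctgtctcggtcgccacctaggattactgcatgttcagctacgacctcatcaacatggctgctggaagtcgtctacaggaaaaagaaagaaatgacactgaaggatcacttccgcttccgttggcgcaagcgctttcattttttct
The PSMD5 window held 1 antioxidant response element core, whose first base lay 134 bases before the start. PSMD12, which fell in all 3 resistant comparisons, also held 1, at 165 bases, along with 1 ETS motif at 8 bases. The PSMD14 window held 2 CCAAT motifs on opposite strands that overlap by 2 bases, and the PSMB4 window held none of the 4 motifs. Over all windows, the antioxidant response element core was in 18.9% of the 37 windows of the subunit genes and 10.9% of the 35116 promoters in the table, CCAAT in 43.2% and 32%, the ETS motif in 21.6% and 8.52%, and the nuclear respiratory factor 1 core in 5.41% and 2.63%. The windows' median GC content was 60.8% for the subunit genes and 58% for all promoters. A match is only a match of letters, and binding was not measured.

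In batch 2, resistant 1 was again compared with vehicle. Of the 34 genes tested, 18 rose and 5 fell, by the same test over 15218 genes, where 39.9% of all genes were called higher and 35.8% lower. Of the 4818 genes at the level of the subunit genes, 36% were higher and 38.4% lower. The median log2 fold change was 0.30 over the subunit genes and 0.07 over all genes. The groups did not overlap for 27 of the 34 genes. That share was not taken over all genes, so it is not read as particular to the subunit genes. With the replicate number as a block, PSMA4 was also called higher (adjusted p = 0.0275) and PSMA7 lower (adjusted p = 0.0418, edgeR). Without resistant 1 replicate 2 or without vehicle replicate 3, 11 genes rose in place of 18.

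PSMD5 led again, at 185, 195 and 218 CPM in resistant 1, against 51.8, 55.9 and 56.9 CPM in vehicle, a log2 fold change of 1.86 ± 0.12 (SE, n = 3 per group, edgeR adjusted p = 1.89e-09). The gene of the chymotrypsin-like subunit, PSMB5, came next, with 134, 119 and 128 CPM in resistant 1, against 70.4, 78.8 and 70.1 CPM in vehicle (0.80 ± 0.11). PSMD11 followed, with 147, 158 and 147 CPM in resistant 1, against 85.0, 102 and 80.4 CPM in vehicle (0.76 ± 0.12). For these 3 genes every resistant library lay above every vehicle library, and the calls held under all 15 alternatives. PSMB2 rose by 0.69 and PSMA5 by 0.59 on the log2 scale. PSMB7 rose by 0.43, PSMD2 by 0.40, PSMD10 by 0.48 and PSMA3 by 0.39. PSMD14 rose by 0.40, but its adjusted p was 0.066 without resistant 1 replicate 2 and 0.054 without vehicle replicate 3 (edgeR). PSMA3 lost its call without either of those libraries or without vehicle replicate 1. PSMB6, PSMC3 and PSMD9 had log2 differences of -0.023, 0.091 and 0.24 and were not called.

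The 5 genes that fell in batch 2 were the 5 that fell in batch 1. PSMC5 stood at 113, 129 and 115 CPM in resistant 1, against 204, 210.3 and 186 CPM in vehicle (-0.75 ± 0.14), and PSMB4 at 117, 138 and 135 CPM in resistant 1, against 203, 212 and 202 CPM in vehicle (-0.66 ± 0.12). Neither overlapped between the groups. PSMD12 changed by -0.66 ± 0.18, PSMC1 by -0.53 ± 0.13 and PSMD4 by -0.39 ± 0.10; the call of PSMD4 was lost with scaling to total counts only. The 2 comparisons of resistant 1 with vehicle share no library. In both, 23 of the 34 genes were called, all with the same sign, which is all 18 that rose in batch 2 and 18 of the 27 that rose in batch 1. Over all genes called in both batches, 96.1% of 9837 had the same sign. Sample numbers of resistant 1 and vehicle recur in both batches. The titles do not say whether the same samples were sequenced again, so the batches may not be independent.

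**Figure D3:**
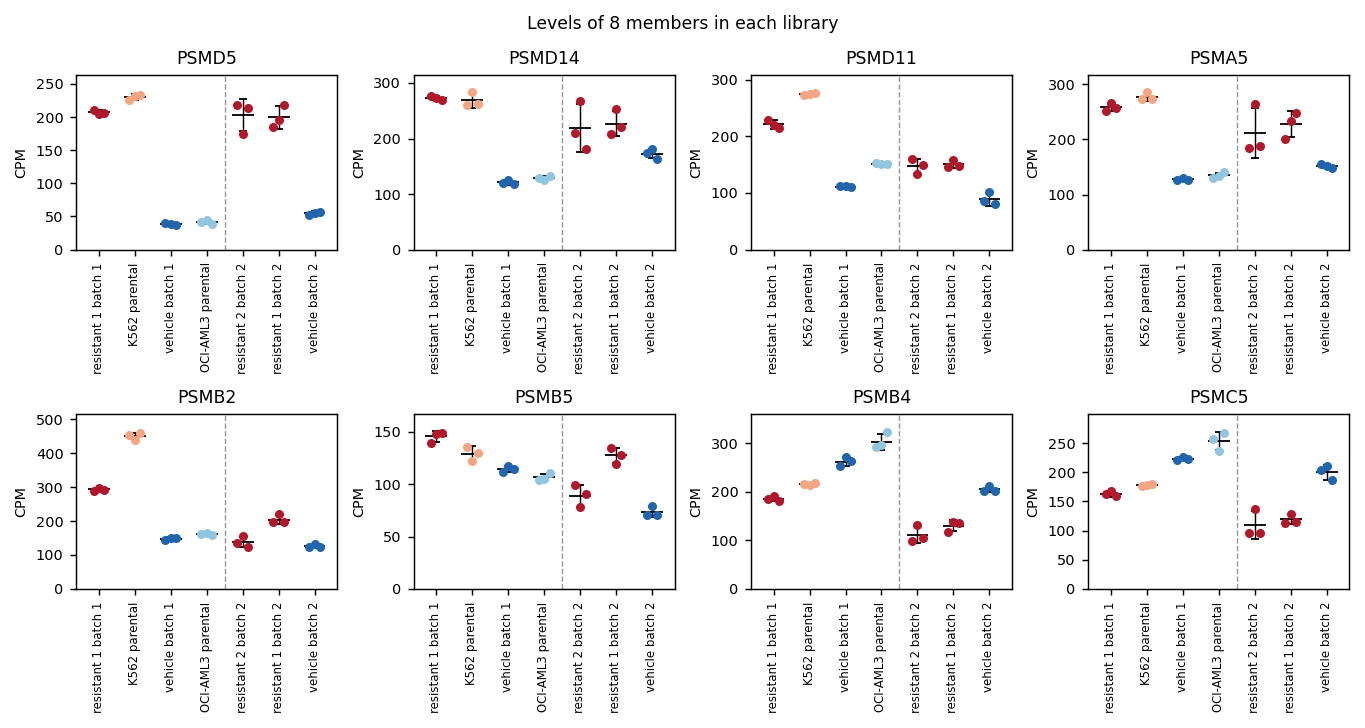
CPM (vertical axis, linear from 0) of 8 subunit genes in each library; points are libraries, bars the group mean ± SD (n = 3), and a dashed line parts the batches. PSMD5 was at 175 CPM or more in every resistant and K562 library and at 56.9 CPM or less in every vehicle and parental library, whereas PSMB4 and PSMC5 were lower in resistant 1 and resistant 2 than in the vehicle libraries of their batch.

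For many subunit genes, the log2 fold change of resistant 1 over vehicle was lower in batch 2 than in batch 1. PSMC1, PSMC5 and PSMD12 fell further in batch 2, while PSMD1 and PSMD6, which rose in batch 1, were not called there, at -0.023 and -0.23. An interaction term in a fit of the 12 libraries gave a lower log2 fold change in batch 2 for 18 of the 34 genes and a higher one for 1, while 18.2% of the 15209 genes tested were lower and 15% higher. Of the 5038 genes at the level of the subunit genes, 31.6% were lower and 13.1% higher, with a median of -0.14, against a median of -0.33 over the subunit genes. Of the regulatory particle genes and chaperones 14 of 20 were among the 18, and of the core particle genes 4 of 14. The difference was -0.87 ± 0.11 for PSMD14 (SE, edgeR adjusted p = 1.19e-05) and -0.66 ± 0.10 for PSMD5. It was -0.57 ± 0.14 for PSMD6, a lid gene, -0.55 ± 0.10 for PSMB7 and -0.52 ± 0.11 for PSMA5. PSMB5 had the one called difference in the other direction, a greater rise in batch 2, with a difference of 0.36 ± 0.10 (edgeR adjusted p = 0.0106). With scaling to total counts only, 6 genes were lower in place of 18, and the share of higher calls among all called genes was 65.6% in place of 45.1%. The median of all genes was 0.13 with that scaling and -0.02 with the scaling used.

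**Figure D4:**
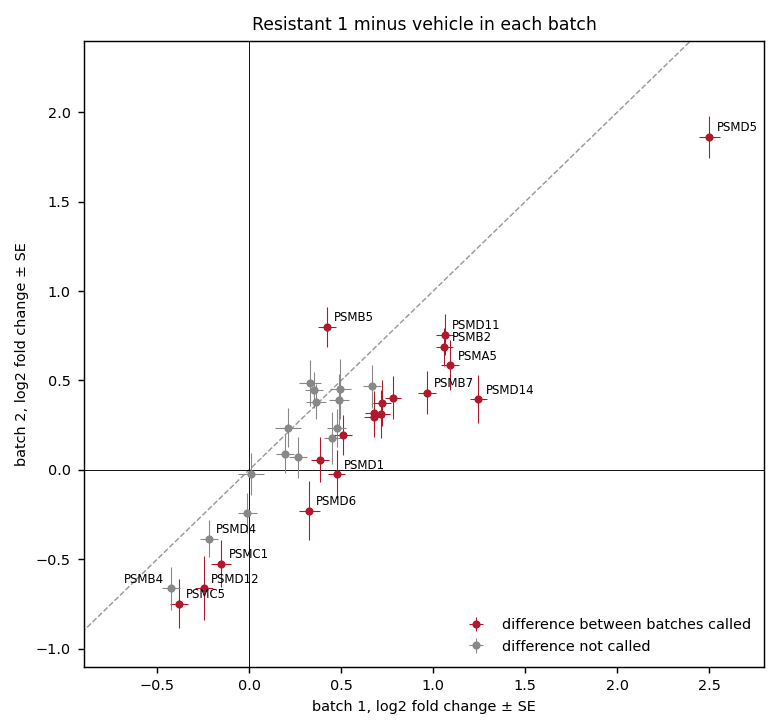
Log2 fold change of resistant 1 minus vehicle in batch 1 (horizontal axis) and batch 2 (vertical axis) for the 34 genes tested, with SE bars; the dashed line marks equal change, and red points are the 19 genes whose change differed between batches. Most red points lie under the line, PSMD14 and PSMD5 among them, and PSMB5 lies above it.

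Resistant 2 differed from vehicle in fewer subunit genes, and in both directions. Of the 34 genes tested, 12 rose and 9 fell, where 40.2% of all genes tested were called higher and 35.9% lower, and the median log2 fold change was 0.02 over the subunit genes and 0.07 over all genes. Of the genes at the level of the subunit genes, 34.4% were higher and 40.1% lower. This comparison uses the vehicle libraries that the comparison of resistant 1 in batch 2 uses. The chaperone genes all rose, and the alpha ring had 1 gene that rose and 3 that fell. With scaling to total counts only, 19 genes rose and 4 fell, the share of higher calls among all called genes was 63.5% in place of 52.9%, and the median of all genes stood at 0.35. Without vehicle replicate 3, 6 genes rose in place of 12. Without resistant 2 replicate 2, in which 28 of the 34 genes were highest, 8 rose and 14 fell, while without resistant 2 replicate 3, vehicle replicate 1 or vehicle replicate 2, 5 fell in place of 9.

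PSMD5 stood at 219, 175 and 214 CPM in resistant 2, against 51.8, 55.9 and 56.9 CPM in vehicle, and its log2 fold change was 1.88 ± 0.12 (SE, n = 3 per group, edgeR adjusted p = 1.65e-09). PSMD11 stood at 159.8, 134 and 149 CPM in resistant 2, against 85.0, 102 and 80.4 CPM in vehicle (0.72 ± 0.12). PSMD7, a lid gene, stood at 221, 167 and 192 CPM in resistant 2, against 136, 139 and 128 CPM in vehicle (0.53 ± 0.11). These 3 genes did not overlap between the groups and were called under all 15 alternatives, as were PSMA5 (0.49), PSMD2 (0.44) and PSMC4 (0.37), an ATPase gene. PSMB1, PSMB5, PSMD8, PSMD9, PSMD10 and PSMD14 rose by 0.22 to 0.34 on the log2 scale, and each lost its call without at least 1 library. For PSMB5 and PSMD10 the libraries of the groups overlapped, and the call of PSMB5 was lost without resistant 2 replicate 1 or 3 or vehicle replicate 1 or 3. PSMB7, PSMC3 and PSMA3 had log2 differences of 0.014, 0.027 and -0.29 and were not called. With the replicate number as a block, PSMA3, PSMD1 and PSMD6 were called lower.

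Among the genes that fell in resistant 2, PSMB4 stood at 98.6, 131 and 105 CPM in resistant 2, against 203, 212 and 202 CPM in vehicle (-0.88 ± 0.12). PSMC5 stood at 95.4, 138 and 95.2 CPM in resistant 2, against 204, 210.3 and 186 CPM in vehicle (-0.87 ± 0.14). PSMD4 stood at 134, 153 and 135 CPM in resistant 2, against 228, 199.8 and 196 CPM in vehicle (-0.56 ± 0.10). The groups did not overlap for any of these. The alpha ring gene PSMA6 stood at 138, 171 and 130.5 CPM in resistant 2, against 232, 213 and 209 CPM in vehicle (-0.57 ± 0.11), again without overlap. These 4 genes kept their calls under every alternative run. PSMD12 (-0.53), PSMA2 (-0.41), PSMB6 (-0.37), PSMC1 (-0.32) and PSMA7 (-0.29) also fell, and each lost its call with scaling to total counts only and without at least 1 library. Set beside resistant 1 of batch 1, with which it shares no library, resistant 2 had 19 of the 34 genes called in both comparisons. Of these, 17 had the same sign and PSMA2 and PSMA6 the opposite one, while 95.2% of the 9834 genes called in both had the same sign.

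The resistant populations were compared directly in batch 2. In resistant 2, 11 of the 34 genes were lower than in resistant 1 and 1 was higher, where 11.9% of the 15218 genes tested were called lower and 12.4% higher. Of the genes at the level of the subunit genes, 15% were lower and 9.92% higher. The genes that differed were mostly those of the core particle, with 9 of 14 lower, against 2 of 20 genes of the regulatory particle and its chaperones lower and 1 higher. PSMA3 stood at 103, 142 and 93.2 CPM in resistant 2, against 164, 198 and 180.4 CPM in resistant 1 (-0.68 ± 0.14, edgeR adjusted p = 0.00363). PSMA6 stood at 138, 171 and 130.5 CPM in resistant 2, against 221, 238 and 228 CPM in resistant 1 (-0.64 ± 0.11). PSMB5 stood at 98.8, 77.8 and 90.1 CPM in resistant 2, against 134, 119 and 128 CPM in resistant 1 (-0.52 ± 0.11). In all 3 genes every resistant 2 library was below every resistant 1 library. PSMB3, a beta ring gene, differed by -0.62 ± 0.17, PSMA2 by -0.59 ± 0.14 and PSMB2 by -0.56 ± 0.11. PSMB7 (-0.42) and PSMB6 (-0.35), which complete the active sites, were lower too. PSMB7 kept its call under 11 of 15 alternatives and PSMB6 under only 4. Both lost their calls with scaling to total counts only and without some libraries, resistant 2 replicate 1 and replicate 3 among them.

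PSMA1, PSMA2, PSMA3, PSMA6, PSMB2 and PSMB5 were lower in resistant 2 under all 15 alternatives. Without resistant 2 replicate 1 or replicate 3, 6 genes were lower in place of 11. PSMD7 was the gene called higher, with 221, 167 and 192 CPM in resistant 2, against 144, 155 and 162 CPM in resistant 1 (0.33 ± 0.11, edgeR adjusted p = 0.0473), and it lost its call without any 1 of 8 libraries, namely those of resistant 1, those of vehicle, and resistant 2 replicate 1 or 3, and also with no filter or with only the 2 groups compared. PSMD5 stood at 219, 175 and 214 CPM in resistant 2 and 185, 195 and 218 CPM in resistant 1, with overlapping libraries, and was not called (0.021 ± 0.11). PSMD14, PSMD2, PSMD4, PSMC3, PSMD9 and PSMD10 had log2 differences between -0.18 and 0.033 and were not called either. With scaling to total counts only, the share of higher calls among all called genes was 65.1% in place of 51%, and 8 subunit genes were lower.

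**Figure D5:**
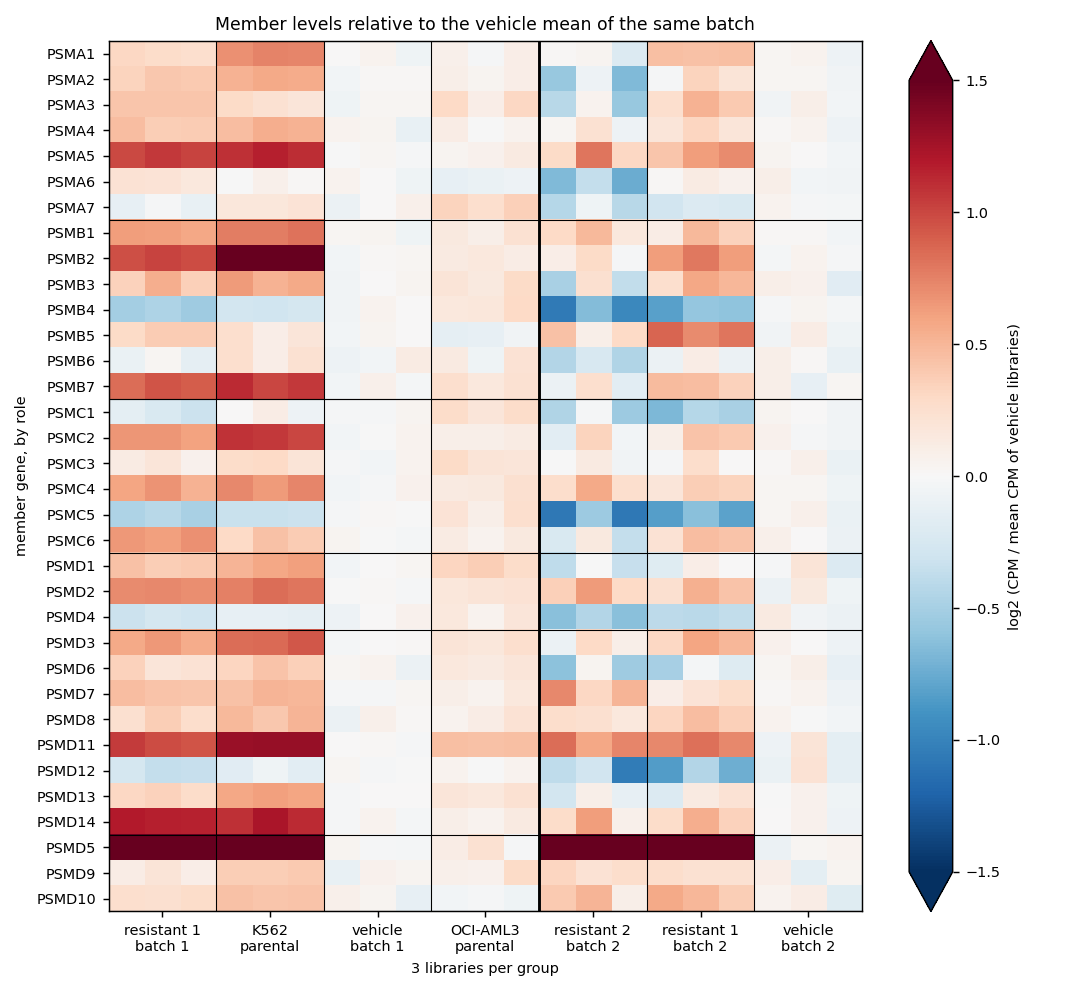
Log2 of CPM over the mean CPM of the vehicle libraries of the same batch (colour, red higher and blue lower, saturated at ±1.5) for the 34 genes tested (rows, by role) in the 21 libraries (columns, 3 per group; a heavy line parts the batches). The PSMD5 row is saturated in every resistant and K562 library, and in the resistant 2 columns PSMA2, PSMA3, PSMA6 and PSMA7 are bluer in replicates 1 and 3 than in replicate 2.

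Vehicle cells differed from parental OCI-AML3 cells by small amounts. In vehicle, 22 of the 34 genes were lower than in parental cells and 0 were higher by edgeR, with 0 higher also at an unadjusted p under 0.05 and by DESeq2, while 18.3% of the 14505 genes tested were lower and 18.7% higher. Of the genes at the level of the subunit genes, 25.1% were lower and 20% higher. The median log2 fold change was -0.17 over the subunit genes and 0 over all genes. All 6 ATPase genes and all 3 other base genes fell, and of the alpha ring 2 of 7 did. PSMD11 changed the most, with 112, 112 and 109.7 CPM in vehicle, against 152, 151 and 152 CPM in parental cells (-0.47 ± 0.049, edgeR adjusted p = 1.68e-08). PSMD1, the other scaffold of the base, stood at 192, 198 and 200.1 CPM in vehicle, against 246, 254 and 237 CPM in parental cells (-0.35 ± 0.046). The libraries did not overlap in either gene. PSMA7 (-0.35), PSMC1 (-0.27) and PSMA3 (-0.27) followed, and PSMC3 (-0.26), PSMB7 (-0.24), PSMD2 (-0.22) and PSMD4 (-0.16) fell as well. PSMB5, PSMB6, PSMD14 and the chaperone genes PSMD5, PSMD9 and PSMD10 were not called. The call of PSMD4 was lost without vehicle replicate 1 or parental replicate 1.

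K562 cells, the line whose markers the resistant libraries carried, were compared with parental OCI-AML3 cells. In K562, 25 of the 34 genes were higher and 6 lower, where 42.6% of the 13883 genes tested were higher and 42.5% lower, and the median log2 fold change was 0.37 over the subunit genes and 0.00055 over all genes. Of the 4604 genes at the level of the subunit genes, 46.9% were higher and 40.1% lower. PSMD5 stood at 225, 232 and 234 CPM in K562, against 41.5, 45.0 and 38.2 CPM in parental OCI-AML3 (2.47 ± 0.061, edgeR adjusted p = 2.63e-19). PSMB2 stood at 452, 438 and 459 CPM in K562, against 162, 165 and 160.0 CPM in parental OCI-AML3 (1.47 ± 0.047). PSMD14 (1.06), PSMA5 (1.04) and the ATPase gene PSMC2 (0.95) were the next highest, and PSMB7 (0.84), PSMD2 (0.60), PSMD10 (0.47), PSMB5 (0.28) and PSMD9 (0.23) were higher too. PSMC5 stood at 177, 177 and 179 CPM in K562, against 257, 237 and 266 CPM in parental OCI-AML3 (-0.51 ± 0.053). PSMB4 (-0.49), PSMD4 (-0.26), PSMC1 (-0.23), PSMD12 (-0.16) and PSMA7 (-0.13) were lower as well, and PSMB6, PSMC3 and PSMA3 were not called. The call of PSMA7 was lost without K562 replicate 1 or parental replicate 1.

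Those values stand beside the ones of resistant 1 minus vehicle in batch 1, which uses other libraries. In both comparisons 30 of the 34 genes were called, all with the same sign, 25 higher and 5 lower. The 25 are all those higher in K562 and 25 of the 27 that rose in resistant 1. The 5 lower genes are PSMB4, PSMC1, PSMC5, PSMD4 and PSMD12. Over all genes called in both comparisons, 97.3% of 10809 had the same sign. Resistant 1 of batch 2 had 22 genes called in common with K562 minus parental, all with the same sign, where 92.3% of all 9238 genes called in both had the same sign. Resistant 2 had 20, of which 18 (90%) had the same sign and PSMA2 and PSMA6 the opposite one, near the 91.5% of all 9235 genes called in both.

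Resistant 1 was also set against K562 within batch 1, and it was lower than K562 in most subunit genes, by small amounts. Of the 34 genes, 24 were lower and 4 higher, where 26.2% of the 14609 genes tested were lower and 27% higher, and the median log2 fold change was -0.17 over the subunit genes and 0 over all genes. Of the 4841 genes at the level of the subunit genes, 42.2% were lower and 20.1% higher, with a median of -0.088. PSMB2 had the greatest difference, with 289, 298 and 291 CPM in resistant 1, against 452, 438 and 459 CPM in K562 (-0.62 ± 0.040, edgeR adjusted p = 1.01e-12). The groups did not overlap. PSMA1 (-0.44), PSMC2 (-0.41), PSMD11 (-0.31) and PSMD13 (-0.29), a lid gene, followed. The 4 higher genes were PSMC6 (0.27), an ATPase gene, PSMA3 (0.18), PSMA6 (0.17) and PSMB5 (0.17), and they were called under all 18 alternatives. PSMD5 was lower by 0.15, a call that was lost with scaling to total counts only and without resistant 1 replicate 2 or 3 or K562 replicate 1 or 2. With that scaling 12 genes were lower in place of 24, and the share of higher calls among all called genes was 63.5% in place of 50.8%. Without resistant 1 replicate 3, K562 replicate 1 or K562 replicate 2, 8, 15 and 13 genes were lower.

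The immunoproteasome genes, which encode the subunits that replace PSMB5, PSMB6 and PSMB7, were described beside them. PSMB8 stood at 1.94, 2.58 and 2.16 CPM in resistant 1 of batch 1 and 1.10, 1.36 and 1.00 CPM in K562, against 115, 123 and 127 CPM in vehicle and 124, 124 and 128 CPM in parental cells. Its log2 fold change was -5.70 ± 0.090 in resistant 1 of batch 1, -4.22 ± 0.19 in resistant 1 of batch 2 and -3.01 ± 0.17 in resistant 2. PSMB10 changed by -2.68 ± 0.087, -2.46 ± 0.17 and -2.47 ± 0.17 in the same comparisons. PSMB8 and PSMB10 were thus far lower in all resistant libraries, in the direction opposite to PSMB5 and, in resistant 1, to PSMB7. PSMB9 fell by 2.62 in resistant 1 of batch 1 and by 1.50 in resistant 1 of batch 2, but in resistant 2 it stood at 25.2, 24.3 and 26.7 CPM, against 17.9, 16.4 and 19.1 CPM in vehicle (0.51 ± 0.17, edgeR adjusted p = 0.0151). Reads of PSMB8 and PSMB9 are uncertain at their shared edge, since exons of the genes overlap on opposite strands and no source used here gives the strand setting of the counting.

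Within each pair the share of the immune gene was taken on levels per kb of exon. PSMB8 made up 0.676% ± 0.081 of the PSMB5 and PSMB8 level in resistant 1 of batch 1, against 32.2% ± 0.80 in vehicle (SD, n = 3). In batch 2 its share was 4.42% ± 1.09 in resistant 2 and 1.36% ± 0.28 in resistant 1, against 30.9% ± 0.58 in vehicle. PSMB10 made up 5.33% of its pair with PSMB7 in resistant 1 of batch 1, against 41.4% in vehicle. PSMB9 made up 24.99% of its pair with PSMB6 in resistant 2 and 6.18% in resistant 1, against 15.3% in vehicle of batch 2. The shares depend on the gene length used. On the Ensembl canonical transcript PSMB8 made up 1.40% in resistant 1, against 49.8% in vehicle of batch 1, and the groups stayed apart.

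Other genes of the pathway outside the 36 moved in both directions. Of 42 such genes tested, 19 rose and 15 fell in resistant 1 of batch 1, 10 rose and 17 fell in resistant 1 of batch 2, and 13 rose and 22 fell in resistant 2, each against vehicle of its batch. Over all genes tested, 44%, 39.9% and 40.2% rose and 42.1%, 35.8% and 35.9% fell in these comparisons. Of the 5 assembly factors of the core particle, 4 rose and 1 fell in resistant 1 of batch 1. PSMG1, which helps the alpha ring to form, stood at 156, 159 and 159.8 CPM in resistant 1, against 64.2, 65.4 and 62.6 CPM in vehicle of batch 1 (1.38 ± 0.052), and its log2 fold change was 0.70 ± 0.12 in resistant 1 and 0.88 ± 0.12 in resistant 2 of batch 2. PSMG4 rose by 1.13, 0.56 and 0.95 in the same order. POMP, which guides the beta ring, rose by 0.36 in batch 1 and had log2 differences of -0.12 and -0.27, not called, in batch 2. Among the activators, PSME4 rose in all 3 comparisons (1.04, 0.79 and 0.72), whereas PSME1 (-1.32, -0.48 and -1.21) and PSME2 (-0.94, -0.47 and -1.27), which form the cap that interferon induces, fell in all 3. Of the 2 remaining regulatory subunit genes, SEM1, for a small lid subunit, fell in all 3 comparisons (-0.36, -0.59 and -0.93), and ADRM1, for a ubiquitin receptor, rose in batch 1 (0.19) and was not called in batch 2. K562 had a mean PSMG1 level of 197 CPM, against 65.8 CPM in parental OCI-AML3. PSMG4 (23.2 against 9.35 CPM) and PSME4 (313 against 180 CPM) were also higher in K562. PSME1 (38.4 against 139 CPM) and PSME2 (47.9 against 124 CPM) were lower there. POMP libraries overlapped between those groups, and SEM1 and ADRM1 were not called.

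Among the 9 genes listed as regulators of subunit expression, 6 rose and 2 fell in resistant 1 of batch 1, 4 rose and 1 fell in resistant 1 of batch 2, and 5 rose and 1 fell in resistant 2. The shares over all genes tested were 44%, 39.9% and 40.2% higher and 42.1%, 35.8% and 35.9% lower. With so few genes, these counts are not read as particular to the list. NFE2L1, the factor that raises subunit genes when the proteasome is inhibited, stood at 142, 143 and 141 CPM in resistant 1, against 239, 234 and 249 CPM in vehicle of batch 1 (-0.69 ± 0.047). In batch 2 it stood at 315, 185 and 356 CPM in resistant 2 and 256, 199.7 and 218 CPM in resistant 1, against 219, 155 and 173 CPM in vehicle, with log2 fold changes of 0.65 ± 0.21 in resistant 2 and 0.30 ± 0.21, not called, in resistant 1. It was thus lower in batch 1 and higher in resistant 2, where its libraries overlapped vehicle. NFE2L2 stood at 125, 119 and 117 CPM in resistant 1, against 94.0, 86.7 and 93.4 CPM in vehicle of batch 1. In batch 2 NFE2L2 stood at 263, 201 and 298 CPM in resistant 2 and 180, 182 and 202 CPM in resistant 1. Vehicle of batch 2 was at 95.8, 108 and 100.0 CPM, so NFE2L2 was higher than vehicle without overlap in all 3 comparisons. NGLY1, which removes the glycans of NFE2L1, stood at 123, 117 and 121 CPM in resistant 1, against 51.9, 47.8 and 46.1 CPM in vehicle of batch 1, and rose in all 3 comparisons (1.38, 0.92 and 0.93). DDI2, the protease that activates NFE2L1, rose in batch 1 (1.03) and was not called in batch 2 (0.13 in resistant 1 and 0.27 in resistant 2). In K562, NGLY1 stood at 137, 141 and 144 CPM, against 48.9, 49.0 and 48.8 CPM in parental OCI-AML3. DDI2 was higher in K562 as well, at 34.8, 29.4 and 34.3 CPM, against 10.8, 13.6 and 10.3 CPM. So was NFE2L2, at 116, 118 and 115 CPM, against 86.9, 89.7 and 88.3 CPM. NFE2L1 was lower there, at 159, 164 and 164 CPM, against 209, 214 and 201 CPM.

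Of the 6 factors that bind the proteasome, 2 rose and 2 fell in resistant 1 of batch 1, 1 rose and 4 fell in resistant 1 of batch 2, and 1 rose and 5 fell in resistant 2. ECPAS, which tethers the core to its regulator, rose by 1.23, 0.78 and 0.44, and ZFAND5, which activates the proteasome, changed by -1.13, -1.64 and -1.75. UBE3C, a ubiquitin ligase, changed by -0.82, -1.26 and -1.33. Of the 5 ubiquitin and E1 genes 0 rose and 2, 2 and 5 fell in those comparisons, and of the 5 shuttle receptors 2, 1 and 1 rose and 1, 2 and 3 fell. Beside these counts, 44%, 39.9% and 40.2% of all genes tested rose and 42.1%, 35.8% and 35.9% fell. The lists are too short for their counts to be read as particular to them. The nuclear import genes split in resistant 1 of batch 1, where AKIRIN2 rose (0.17) and IPO9 fell (-0.37), and in resistant 2 (0.25 and -0.42). In resistant 1 of batch 2, IPO9 fell (-0.40) and AKIRIN2 was not called (0.21).

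Both tissue-restricted genes were at or near 0. PSMA8, whose product takes the place of PSMA7 in the testis, had 3, 4 and 3 counts in the resistant 1 libraries of batch 2, 1 count in 1 K562 library and 0 counts in the other 17. PSMB11, the subunit of the thymus, had 2 counts in 1 resistant 1 library of batch 1 and 0 in the other 20. Neither was tested, and no fold is given.

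Across genes, levels can be compared only per kb of gene model. On the union of exons in GENCODE v44 (hg38), the 34 genes ran from 5.01 CPM per kb for PSMD9 to 129 for PSMB3 in resistant 1 of batch 1, and from 4.56 for PSMD9 to 123 for PSMB4 in vehicle. The coefficient of variation over the genes, averaged over libraries, was 61.3% in resistant 1 and 62.5% in K562, against 71.3% in vehicle and 74.6% in parental cells of batch 1. In batch 2 it was 59.0% in resistant 2 and 57.1% in resistant 1, against 60.9% in vehicle. Subunit genes thus differed widely in level per kb in every group. PSMD5 stood at 47.1 CPM per kb in resistant 1 of batch 1, near the median of 44.5 for the 34 genes, against 8.76 in vehicle, where the median was 33.0. On the Ensembl canonical transcript, a length chosen after seeing the data, PSMD5 was the lowest of the 34 genes in vehicle and parental cells of batch 1, and PSMD9 was in the other groups.

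Some counts could be shared with other loci. PSMC1 has 13 named pseudogenes in the annotation, PSMA6 has 4, and PSMA2 and PSMD10 have 3 each. PSMA1, PSMA3, PSMA5, PSMB3, PSMB7, PSMC2, PSMD4, PSMD7, PSMD8, PSMD12 and PSMD14 have 1 or 2 each. None of these pseudogenes has a row of its own in the tables. PSMC1 and PSMC5 overlap exons of NRDE2 and FTSJ3 on the other strand, PSMC2 overlaps PMPCB on the same strand and SLC26A5 on the other, PSMD1 overlaps HTR2B on the other strand, and PSMD6 overlaps the antisense genes PSMD6-AS1 and PSMD6-AS2. PSMA1, PSMA2, PSMA6 and PSMD9 overlap exons of other genes on the same strand. PSMA2, PSMD7, PSMD9 and PSMD11 overlap exons of further genes on the other strand. Without the strand setting of the counting, reads from pairs on opposite strands cannot be told apart. For pairs on the same strand, that setting would not part the reads. The values of all these genes are uncertain to that extent. PSMD5 (chromosome 9, 120815496 to 120842951, minus strand), PSMB4 (chromosome 1, 151399560 to 151401937, plus strand), PSMA5 and PSMB2 overlap no exon of another gene. Among them only PSMA5 has a named pseudogene.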

How the data were processed

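The authors deposited raw counts per gene symbol, 1 table per batch, not normalized. Alignment to hg38 and differential expression with DESeq2 1.22.1 are named in the submitters' processing notes. No source used here gives the aligner version, annotation or strand setting; the library kit marks strand, per the labels' protocols. The values were checked to be whole numbers, and 0 columns lacked a sample.

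Counts were analysed with edgeR 4.0.16 in R 4.3.3, with TMM scaling, the filterByExpr filter on low counts, robust quasi-likelihood fits of group means, two-sided F tests and Benjamini-Hochberg adjustment over all genes tested. A gene was called at an adjusted p under 0.05. The 3 OCI-AML3 groups of batch 1 and the 3 groups of batch 2 were each fitted together, K562 minus parental in a fit of those groups, resistant 1 minus K562 in a fit of all groups of batch 1, and the difference between batches as an interaction. SE is the fold change over the root of F. The fits were tested on simulated data in which few genes changed, equally up and down, and every gene had the same spread. Many more genes were called in the comparisons with vehicle, so the simulation does not test the scaling there. Comparisons in batch 2 share vehicle libraries.

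The subunit genes, pathway lists, marker lists and the naming rule were chosen with earlier results of these data known. Named genes were a fixed set (the genes of the active sites, PSMA3, PSMC3, PSMD2, PSMD4, PSMD14, the chaperones, PSMA8 and PSMB11) and, in each comparison, up to 5 called genes that rose most and 5 that fell most. Other members were named where a count rested on them. ECPAS was matched by its older symbol. One marker of the erythroid list is not reported here and was left out of its sum. Lengths and positions came from GENCODE v44 on hg38.

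Replicate numbers were taken from the labels. The same numbers recur in both batches, and the fit of the difference between batches took all its libraries as independent. Deviations of same-numbered libraries correlated at 0.21, 0.27 and 0.22 for resistant 1 and vehicle and at 0.29, 0.39 and 0.16 for resistant 2 and resistant 1 of batch 2, so these numbers were taken to pair the libraries. The fits reported do not use this pairing, which entered only as the replicate block among the alternatives. The SEs and p-values given for batch 2 are thus those of unpaired fits. Replicate 3 of resistant 2 correlated best with replicate 1 of resistant 1, so the pairing of those groups is less certain. In each other comparison of groups a pair correlated at 0.084 or lower, so the numbers were not taken to pair its libraries. No pair of replicates agreed within sampling noise: the chi-square per gene was at least 1.81. Alternatives were another scaling (RLE, total counts), DESeq2 1.42.0, no filter, a replicate block, only the groups compared, and each library left out in turn. With 3 libraries a group, depth and replicate spread limit what could be called.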

Additional observations from a re-analysis of the deposited data

Results flagged for a closer look

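The change from vehicle to resistant 1 differed between batch 2 and batch 1 for 19 of the 34 subunit genes tested, by an interaction test (edgeR, Benjamini-Hochberg adjustment over 15209 genes). Over all genes tested 18.2% were lower and 15% higher in batch 2, and over the genes at the level of the subunit genes 31.6% were lower and 13.1% higher. For 1 of them, PSMB5, the log2 fold change was higher in batch 2, by 0.36. For 18 it was lower, and with scaling to total counts only for 6. In the lid the differences were -0.87 for PSMD14, -0.57 for PSMD6, -0.43 for PSMD12, -0.35 for PSMD13, -0.33 for PSMD7 and -0.33 for PSMD11. In the base they were -0.42 for PSMC2, -0.40 for PSMC4, -0.39 for PSMC1, -0.39 for PSMC5 and -0.37 for PSMC6 among the ATPases, and -0.52 for PSMD1 and -0.40 for PSMD2 among the scaffolds. PSMD5, the chaperone, differed by -0.66. In the core particle they were -0.52 for PSMA5, -0.55 for PSMB7, -0.39 for PSMB2 and -0.38 for PSMB1. PSMA5, PSMB7, PSMD1, PSMD5, PSMD6 and PSMD14, and PSMB5 in the other direction, kept their calls under all 17 alternatives run. Batches differ in sequencing depth, with 30719771 to 51262668 counts per library in batch 2 and 14066821 to 21091646 in batch 1, and in replicate spread; the part of either in these differences was not tested.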

How the results depend on the processing

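Among the calls of named genes, 2036 values under alternatives were compared with those reported. Of these, 1931 stayed on the same side of the threshold, 90 kept their direction and lost the call, 15 gained it, and 0 reversed among called values. Among the 1931, 45 had the other sign, and these were called neither in the fit reported nor in the alternative. With scaling to total counts only, which shifted the median of all genes to 0.26 for resistant 1 minus vehicle in batch 2, 0.35 for resistant 2 minus vehicle and 0.13 for the difference between batches, 19 genes were higher and 4 lower in resistant 2 minus vehicle, 12 were lower in resistant 1 minus K562 and 6 were lower in the difference between batches. With no filter or only the 2 groups compared, 0 genes were higher in resistant 2 minus resistant 1. Leaving out 1 library at a time gave 11 to 20 genes higher in resistant 1 minus vehicle of batch 2, 6 to 12 higher and 5 to 14 lower in resistant 2 minus vehicle, 0 to 1 higher and 6 to 14 lower in resistant 2 minus resistant 1, 17 to 26 lower in vehicle minus parental, 8 to 25 lower in resistant 1 minus K562, and 14 to 24 lower in the difference between batches. It gave 26 to 27 higher and 4 to 5 lower in resistant 1 minus vehicle of batch 1, and 24 to 26 higher and 5 to 6 lower in K562 minus parental. Other counts stayed within 1.5 times the one reported. The cause of these shifts was not tested, except that a fit without a library has fewer samples.

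The replicate block added 2 calls in resistant 1 minus vehicle of batch 2 and ended none, giving 19 higher and 6 lower, and left 1 higher and 11 lower in resistant 2 minus resistant 1, the comparisons where the numbers pair the libraries. It changed no other call there. In resistant 2 minus vehicle, 1 pair correlated at 0.084 and the numbers were not taken to pair the libraries. The block gave 12 lower in place of 9 there, adding PSMA3, PSMD1 and PSMD6. Every library correlated best with its own number there, a hint from the data and not the design. Numbers that pair resistant 1 with both other groups would also pair resistant 2 with vehicle. The calls of PSMA3, PSMD1 and PSMD6 therefore depend on that choice. In batch 1 the numbers were not taken to pair the libraries, and pairing between batches was not tested. The block gave 21 lower in place of 22 in vehicle minus parental and 23 in place of 24 in resistant 1 minus K562. In the difference between batches it gave 19 lower in place of 18. With 3 libraries a group, a change that is small against the spread of batch 2 could miss the threshold, so a gene not called there is not shown to be unchanged.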
